A study of Mus musculus with 12 samples.

Results

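The RNAs described here are 9 long non-coding and small nucleolar RNA (snoRNA) host RNAs of the mouse: Gas5, Snhg1, Zfas1, Snhg12, Snhg11, Miat, Malat1, Neat1 and Rmst. They were chosen by symbol, with earlier results of these data known, and are 9 of the 41388 genes listed for each library. The files name genes by Ensembl ID. In the reference annotation (GENCODE M21, build GRCm38) 7 of the 9 symbols carry the ID used in the files. Snhg1 and Rmst carry another ID there and were matched by position and strand to the entries ENSMUSG00000097188 and ENSMUSG00000097348. RNA depleted of ribosomal RNA was sequenced from primary cortical neurons of Swiss Webster mouse embryos, prepared at embryonic day 16, infected with a lentivirus on day 5 of culture and harvested on day 10. The 3 groups hold 4 libraries each. Htt-72Q neurons received exon 1 of huntingtin with 72 glutamines, labelled mutant, Htt-25Q neurons received exon 1 with 25 glutamines, labelled wild type, and control vector neurons received a vector without it, which the labels call empty for 3 libraries and control for control vector 2. Libraries carry the number in their titles. The labels used here name neither the promoter of the vector nor the species of exon 1 or the share of cells infected, and they do not say that the libraries came from separate cultures, so p-values measure the spread between these libraries only. Each description also opens with a number (22, 24, 26, 27 or 27_1), called the preparation here, whose meaning is not stated.

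Hosts of snoRNAs are transcribed by RNA polymerase II and spliced, and their introns are trimmed to snoRNAs that guide methylation (box C/D type) or pseudouridylation (box H/ACA type) of ribosomal RNA. The spliced host RNA that is left over usually encodes no stable protein and is a common substrate of nonsense-mediated decay, and several hosts start with a pyrimidine tract like that of ribosomal protein genes. Malat1, Neat1 and Miat stay in the nucleus: Malat1 lies in nuclear speckles, Neat1 builds paraspeckles, and Miat, also called Gomafu, is a neuronal RNA with repeats of a branch-point-like word that splicing factors bind. Rmst is a neural lncRNA that partners SOX2 in human neural progenitors.

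The start sites of 4 hosts and Miat are shown first, because a run of pyrimidines that opens with C lies at some of them and not at others. Each line runs from 40 bases before to 30 bases after a RefSeq start (build GRCm38.p6), and capitals mark a run of at least 5 pyrimidines that opens with C within 5 bases of the start, and the words TATAA or TATATA 40 to 15 bases before it.
Gas5, chr1:161035126-161035195, plus strand: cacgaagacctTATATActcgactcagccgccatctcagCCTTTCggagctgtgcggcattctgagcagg
Snhg12, chr4:132308638-132308707, plus strand: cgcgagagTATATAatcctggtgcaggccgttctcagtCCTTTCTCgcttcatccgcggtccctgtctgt
Snhg1, chr19:8723447-8723516, plus strand: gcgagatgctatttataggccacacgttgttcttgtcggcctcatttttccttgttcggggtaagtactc
Zfas1, chr2:167062894-167062963, plus strand: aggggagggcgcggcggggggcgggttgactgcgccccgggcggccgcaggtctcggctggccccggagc
Miat, chr5:112228919-112228988, minus strand: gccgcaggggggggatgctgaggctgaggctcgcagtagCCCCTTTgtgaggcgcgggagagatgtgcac

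Gas5 has 2 RefSeq starts, and the one shown holds a run of 6 pyrimidines, while the other holds none of at least 5. Snhg12 holds a run of 8 and Miat a run of 7. The longest runs that open with C within 5 bases of the Snhg1, Zfas1, Snhg11 and Malat1 starts were 4, 3, 3 and 1 bases. Snhg1 also has a run of 9 pyrimidines that opens with T at base 5 of the transcript, and runs of any first letter and at least that length overlap the same bases at 6.89% of all promoters. A run of at least 5 that opens with C was found at 18.3% of 32851 RefSeq promoters and at 42.1% of 76 ribosomal protein promoters, and a TATA word at 3.88% of all promoters. Of the 3 members that hold it, Gas5 was higher in Htt-72Q than in control vector neurons, Snhg12 did not pass the test and Miat was lower. A match is a description of the letters and not a site. Neat1 and Rmst were not matched in this table.

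The 5 hosts hold 26 annotated snoRNA genes, of which Gas5 holds 9, Snhg1 holds 8, Snhg12 holds 4, Zfas1 holds 3 and Snhg11 holds 2. A few are printed because they are the small RNAs these genes are known for. In the sequences of GENCODE M21, capitals mark a C box (TGATGA, within the first 20 bases) and a D box (CTGA, within the last 14 bases), or the ACA of a box H/ACA snoRNA.
Snord80 in Gas5, chr1:161037601-161037681, plus strand: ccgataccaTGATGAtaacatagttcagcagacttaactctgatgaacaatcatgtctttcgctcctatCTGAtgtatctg
Snord47 in Gas5, chr1:161038082-161038158, plus strand: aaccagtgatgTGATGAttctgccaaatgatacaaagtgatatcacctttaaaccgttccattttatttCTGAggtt
Snord99 in Snhg12, chr4:132310691-132310764, plus strand: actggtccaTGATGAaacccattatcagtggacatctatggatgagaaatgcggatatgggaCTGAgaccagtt
Snord12 in Zfas1, chr2:167065276-167065365, plus strand: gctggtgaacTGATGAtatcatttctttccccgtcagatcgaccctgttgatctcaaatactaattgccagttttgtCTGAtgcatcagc
Snora16a in Snhg12, chr4:132309465-132309600, plus strand: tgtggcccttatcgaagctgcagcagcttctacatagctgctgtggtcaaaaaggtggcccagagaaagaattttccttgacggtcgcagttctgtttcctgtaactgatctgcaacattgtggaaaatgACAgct

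Both boxes were found in 7 of the 9 snoRNAs of Gas5, 5 of the 8 of Snhg1, 2 of the 3 of Zfas1 and 1 of the 4 of Snhg12, against 20.1% of 1507 annotated snoRNA transcripts. The counts do not measure these snoRNAs. The 24 snoRNA genes that lie wholly within annotated exons of their host had 0 counts in the 12 libraries, and the 2 outside them, Snora16a and Gm25129 in Snhg11, had 62 and 38 counts over 12 libraries. Across the files, 0 of 458 genes lying wholly within exons of another gene on the same strand and 0 of 238 on the opposite strand had a count, so reads on bases shared by genes of either strand are in neither gene's count. Shared bases made up 38.8% of the exon length of Rmst, 21.1% of Snhg1, 20.5% of Snhg12, 18.5% of Zfas1, 17.8% of Gas5, 11.9% of Miat and between 1.56% and 7.32% of Snhg11, Neat1 and Malat1. Values of the hosts are therefore those of exon sequence outside the snoRNAs. The annotated exons of all transcripts cover 100% of the span of Snhg1 and Zfas1, 91.3% of Gas5, 81.1% of Snhg11 and 69.3% of Snhg12. They thus include sequence that other transcripts splice out, and the counts do not separate spliced from unspliced host RNA.

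Library totals were 12.4 to 20.04 M counts in Htt-72Q, 18.1 to 27.5 M in Htt-25Q and 12.7 to 23.4 M in control vector libraries. The 12 libraries also fall into 6 with Gapdh at 35.4 to 50.2 CPM (counts relative to library size) and 6 with Gapdh at 9.16 to 20.3 CPM. Of these, 3 of 4 Htt-72Q, 1 of 4 Htt-25Q and 2 of 4 control vector libraries are in the higher set. The Htt-72Q library in the lower set is Htt-72Q 3, which also had the smallest total of the 12 libraries (12.4 M). Mouse Htt averaged 169 ± 36.0 CPM in Htt-72Q, 148 ± 27.0 in Htt-25Q and 143 ± 63.9 in control vector neurons (SD, n = 4 each), and the counts do not separate exon 1 of the vector from the mouse gene. Levels below are CPM after TMM scaling, and differences are log2 fold changes ± SE from the edgeR quasi-likelihood test over all 12 libraries, with p-values adjusted by Benjamini-Hochberg over 14707 genes. A change is called at an adjusted p under 0.05. All 9 RNAs passed the filter on low counts. Rmst lay above the filter's level of 0.524 CPM in 4 of 4 Htt-72Q, 2 of 4 Htt-25Q and 1 of 4 control vector libraries, so it passed mainly through the group where it is high.

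Per kilobase of exon, Malat1 had by far the highest level of the 9, with 221 ± 29.5 RPKM in Htt-72Q, 243 ± 40.9 in Htt-25Q and 205 ± 25.9 in control vector neurons (SD, n = 4 each). Gas5 came next with 27.3 ± 4.09 RPKM in Htt-72Q, 17.5 ± 0.489 in Htt-25Q and 17.6 ± 3.66 in control vector neurons. In control vector neurons Miat at 9.27 ± 3.83 RPKM, Zfas1 at 6.91 ± 1.49, Snhg12 at 6.79 ± 2.06 and Snhg1 at 6.13 ± 1.90 followed in mean order with spreads that overlap. Snhg11 was below them at 2.86 ± 1.10 RPKM, and Neat1 and Rmst were lowest at 0.0814 ± 0.0359 and 0.0697 ± 0.0378 RPKM. In Htt-72Q neurons Miat stood at 4.196 ± 1.05 RPKM, below the means of Gas5, Snhg1, Zfas1 and Snhg12 and close to Snhg11 at 4.94 ± 1.55 RPKM. Per kilobase of exon not shared with other genes, Malat1 and Gas5 again led and Rmst and Neat1 were again lowest, with Rmst now above Neat1 in control vector neurons. The means were Malat1 at 239, 262 and 221 RPKM, Gas5 at 33.2, 21.3 and 21.4 RPKM, Rmst at 0.216, 0.0981 and 0.114 RPKM and Neat1 at 0.0746, 0.126 and 0.0830 RPKM in Htt-72Q, Htt-25Q and control vector neurons.

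**Figure D1:**
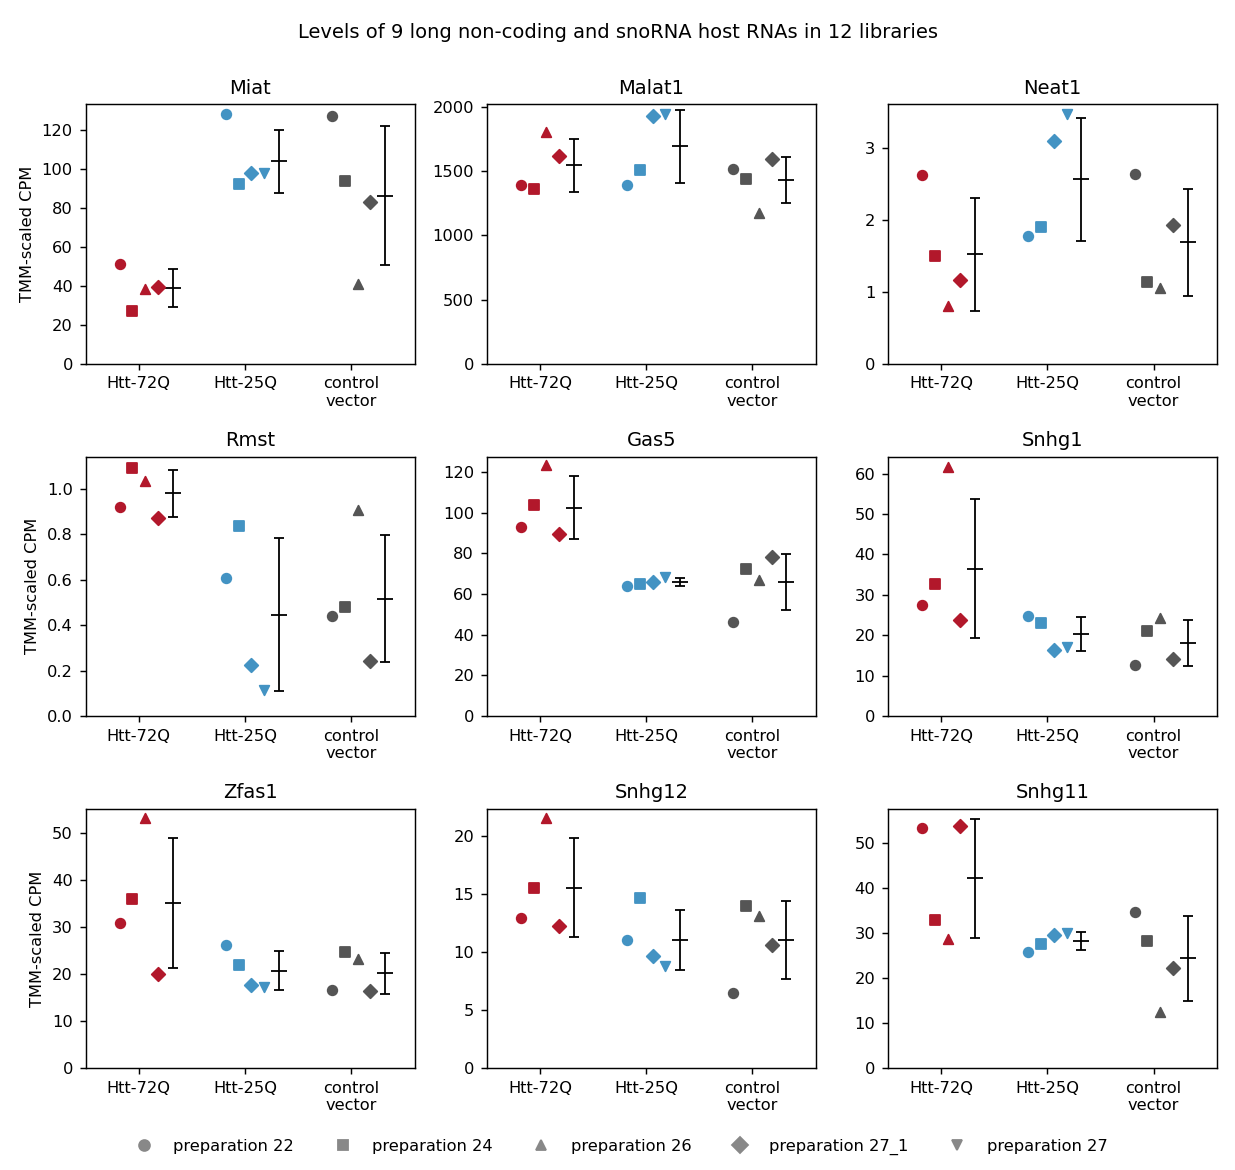
TMM-scaled CPM of the 9 RNAs (vertical axes, each from 0) in the 12 libraries, by group. Each point is 1 library, its shape gives the preparation, and the bar beside each group is the mean with SD (n = 4); the 4 Htt-72Q points of Gas5 lie at 89.4 CPM or above, over the points of both other groups, and Htt-72Q 3 (triangle) is the highest of 12 for Gas5, Snhg1, Zfas1 and Snhg12.

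Expanded exon 1 was first set against the vector without it. Of the 9 RNAs, 4 were higher (Gas5, Snhg1, Zfas1 and Snhg11) and 1 was lower (Miat) in Htt-72Q than in control vector neurons, by the edgeR quasi-likelihood test. Over all genes tested, 23.2% were called in this comparison, 9.44% as higher and 13.7% as lower. The median log2 fold change was 0.64 over the 9 RNAs, Rmst included, and 0.03 over all genes. Gas5 alone had groups that did not overlap, above, beside 23.7% of all genes, 10.1% of them above.

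Gas5, which was found through its rise in growth-arrested mouse fibroblasts, was the 1 host whose groups did not overlap. It had 93.2, 104, 124 and 89.4 CPM in Htt-72Q 1 to 4, against 46.5, 72.5, 67.2 and 78.0 CPM in control vector 1 to 4. The lowest Htt-72Q library was above the highest control vector library. It was higher by 0.63 ± 0.15 on the log2 scale (adjusted p = 0.00776). The call was kept under each of the 22 alternative settings, with log2 fold changes of 0.50 to 0.72.

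Snhg1, a host of box C/D snoRNAs, had the highest fold change of the hosts and a wide spread. It had 27.6, 32.8, 61.7 and 23.7 CPM in Htt-72Q 1 to 4, against 12.6, 21.1, 24.3 and 14.2 CPM in control vector 1 to 4. Htt-72Q 3 stood far above the other libraries, and Htt-72Q 4 lay below control vector 3. Its log2 fold change was 1.01 ± 0.29 (adjusted p = 0.0218). Without Htt-72Q 3 it was 0.63 (adjusted p = 0.0806), without control vector 1 it was 0.86 (adjusted p = 0.0581) and without control vector 4 it was 0.91 (adjusted p = 0.0605).

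Zfas1, which starts head to head with the zinc finger gene Znfx1 and holds Snord12, followed Snhg1 library by library. It had 30.9, 36.0, 53.3 and 20.1 CPM in Htt-72Q 1 to 4, against 16.6, 24.7, 23.3 and 16.4 CPM in control vector 1 to 4. Htt-72Q 3 was again the highest library, and Htt-72Q 4 lay within the range of control vector libraries. It rose by 0.79 ± 0.26 on the log2 scale (adjusted p = 0.0372). It was 0.51 (adjusted p = 0.136) without Htt-72Q 3, and the call was also lost without Htt-72Q 2, control vector 1 or control vector 4 (adjusted p = 0.0811, 0.0874 and 0.0939).

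Snhg12, which holds H/ACA and C/D snoRNAs, also peaked in Htt-72Q 3, with smaller differences. It had 12.9, 15.5, 21.5 and 12.2 CPM in Htt-72Q 1 to 4, against 6.47, 13.9, 13.1 and 10.6 CPM in control vector 1 to 4. The groups overlapped, and control vector 1 was the lowest library of the 12. The log2 fold change was 0.49 ± 0.26 (95% interval -0.09 to 1.07, adjusted p = 0.188). With the preparation as a block it was 0.51 and passed the test (adjusted p = 0.0444).

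Snhg11, which holds 2 snoRNAs with an ACA end, is listed as protein coding in the reference annotation. It had 53.2, 32.8, 28.6 and 53.6 CPM in Htt-72Q 1 to 4, against 34.6, 28.2, 12.5 and 22.2 CPM in control vector 1 to 4. Its highest libraries were Htt-72Q 1 and 4, and Htt-72Q 3, the highest library for the other hosts, was the lowest of its group. It rose by 0.79 ± 0.27 on the log2 scale, with an adjusted p of 0.0474 in the edgeR test, close to the threshold. The call was kept in 2 of the 12 fits that leave out 1 library (without control vector 1 or Htt-72Q 3), and the adjusted p in the other 10 was 0.0544 to 0.136. With the 2 sets of libraries by Gapdh level as a covariate it was 0.70 (adjusted p = 0.0821), and with the preparation as a block 0.82 (adjusted p = 0.00467).

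Miat was the 1 member that fell. It had 51.0, 27.1, 38.4 and 39.4 CPM in Htt-72Q 1 to 4, against 127, 94.0, 40.7 and 83.2 CPM in control vector 1 to 4. Control vector 3 lay inside the Htt-72Q range and the other 3 control vector libraries lay well above it. The log2 fold change was -1.14 ± 0.27 (adjusted p = 0.00724), and the call was kept under each of the 22 alternative settings, with values of -1.40 to -0.90. Within preparation 26 the difference between Htt-72Q 3 and control vector 3 was -0.08 in log2 CPM, while in preparations 22, 24 and 27_1 it was -1.31, -1.79 and -1.08.

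Miat is a neuronal RNA, and many neuronal markers were also lower in Htt-72Q than in control vector neurons. In these bulk samples, fewer cells of a type and less RNA per cell cannot be told apart. Miat was at 40.7 CPM in control vector 3, inside the Htt-72Q range, and at 83.2 to 127 CPM in the other control vector libraries. The neuronal marker sums of every control vector library were above those of all Htt-72Q libraries. Over all genes tested, 23.2% were called in this comparison, 13.7% as lower. Of 12 excitatory neuron markers 9 fell and 0 rose in Htt-72Q against control vector neurons, with summed levels of 511 to 709 CPM in Htt-72Q, 1086 to 1561 CPM in Htt-25Q and 1079 to 1471 CPM in control vector libraries, and no marker at 0 in any library. Inhibitory neuron markers fell in 4 of 10 (112 to 174 CPM in Htt-72Q, 189 to 321 CPM in Htt-25Q and 225 to 301 CPM in control vector libraries), and pan-neuronal markers fell in 4 of 7 (5576 to 5897 CPM in Htt-72Q, 6746 to 8030 CPM in Htt-25Q and 7352 to 8121 CPM in control vector libraries). Of 10 astrocyte markers 0 were called, with 2563 to 3008 CPM in Htt-72Q, 2492 to 3179 CPM in Htt-25Q and 2773 to 3269 CPM in control vector libraries. Microglial markers summed to 7.22 to 25.4 CPM in Htt-72Q, 7.80 to 12.7 CPM in Htt-25Q and 3.70 to 13.6 CPM in control vector libraries, and Tmem119 was at 0 in 10 of 12 libraries. Most of the microglial sum was Aif1, and the other listed microglial markers stayed under 1 CPM in every library. Of 6 fibroblast markers tested, 2 rose and 2 fell, and the 10 listed summed to 198 to 370.1 CPM in Htt-72Q, 211 to 337 CPM in Htt-25Q and 235 to 478 CPM in control vector libraries, most of it Pdgfra, which oligodendrocyte precursors also express. Twist1 (3.80, adjusted p = 1.04e-05) and Igf2 (3.39, adjusted p = 0.000501) had positive log2 fold changes, Fn1 (-3.19, adjusted p = 0.000371) and Postn (-2.90, adjusted p = 9.53e-05) negative ones, and the collagen genes Col1a1, Col1a2 and Col3a1 stayed under 1 CPM in every library. Of 11 oligodendrocyte lineage markers 1 fell (Mobp, -2.89, adjusted p = 0.00847), of 4 endothelial and mural markers tested 1 fell (Rgs5, -2.37, adjusted p = 0.00651), and of 9 neural progenitor markers tested 1 rose (Top2a, 0.35, adjusted p = 0.0457). Their listed markers summed to 586 to 685 CPM, 72.2 to 86.8 CPM and 370.3 to 441 CPM in Htt-72Q, 553 to 679 CPM, 66.7 to 108 CPM and 302 to 394 CPM in Htt-25Q, and 596 to 762 CPM, 73.7 to 98.8 CPM and 316 to 350.4 CPM in control vector libraries. The part of cell composition in the values of Miat and of the hosts was not tested.

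Malat1 was the most abundant member and had overlapping groups. It had 1363 to 1802 CPM in Htt-72Q (mean 1545 ± 206), against 1178 to 1593 CPM in control vector libraries (mean 1432 ± 181; SD, n = 4 each). The log2 fold change was 0.11 (95% interval -0.22 to 0.43, adjusted p = 0.627). Neat1 had 2.63, 1.502, 0.797 and 1.16 CPM in Htt-72Q 1 to 4, against 2.64, 1.14, 1.06 and 1.93 CPM in control vector 1 to 4. These values rest on 10 to 60 counts per library, and the highest Htt-72Q and control vector libraries came from preparation 22. Its log2 fold change was -0.15 (95% interval -1.08 to 0.78, adjusted p = 0.825), an interval that spans changes of either sign.

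Rmst was near the limit of detection in these cortical cultures. It had 14, 16, 13 and 18 counts (0.919, 1.09, 1.04 and 0.871 CPM) in Htt-72Q 1 to 4, against 10, 8, 18 and 3 counts (0.440, 0.479, 0.908 and 0.241 CPM) in control vector 1 to 4. Control vector 3 lay within the Htt-72Q range and the other 3 below it. The log2 fold change was 0.87 ± 0.52 (95% interval -0.30 to 2.04, adjusted p = 0.25), and no difference was detectable at this depth.

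**Figure D2:**
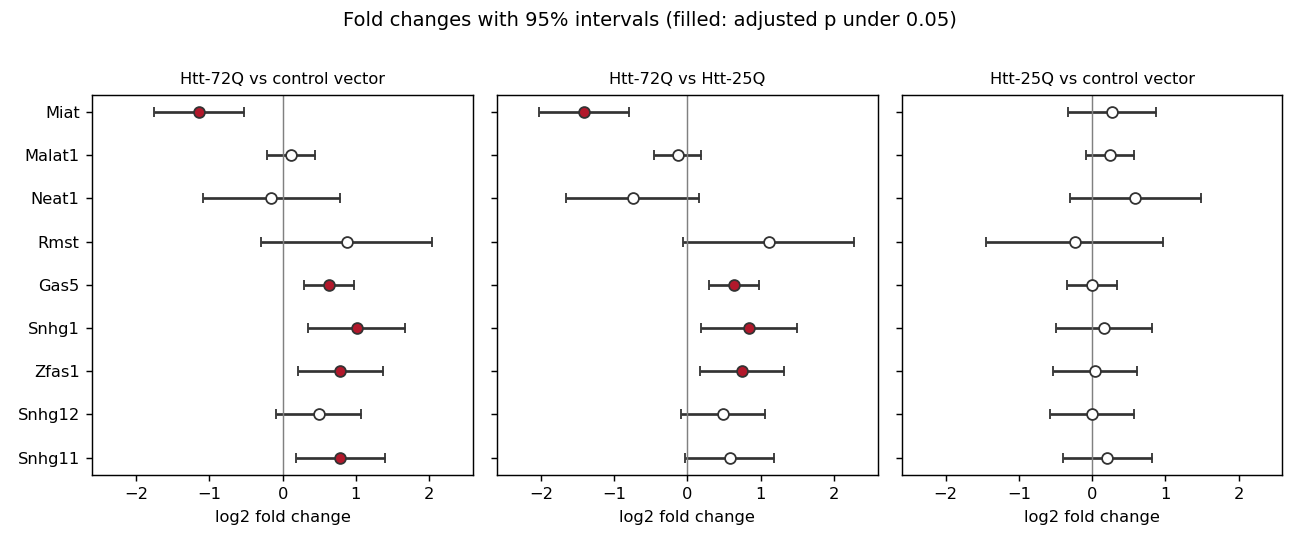
Log2 fold changes of the 9 RNAs (horizontal axis) in the 3 comparisons, with 95% intervals from the edgeR fit of 12 libraries; filled points have an adjusted p under 0.05. Miat at -1.14 and -1.41 is the 1 filled point below 0, and no point is filled for Htt-25Q against control vector.

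Expanded exon 1 was then set against exon 1 of wild-type length. Of the 9 RNAs, 3 were higher (Gas5, Snhg1 and Zfas1) and 1 was lower (Miat) in Htt-72Q than in Htt-25Q neurons, where 22.5% of all genes were called, 9.07% as higher and 13.4% as lower. The median log2 fold change was 0.58 over the 9 RNAs, Rmst included, and 0.03 over all genes. Groups did not overlap for Gas5 (above), Rmst (above) and Miat (below), 3 of the 9, a share not far from the 26.7% of all genes (11.6% above and 15.1% below). Rmst passed the low-count filter mainly through Htt-72Q, where it is high, so nothing is read from its separation. The Htt-72Q libraries are the same as in the comparison with control vector, so the comparisons are not independent.

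Miat was lower without overlap here, and its SD was 16.3 CPM in Htt-25Q libraries and 35.6 CPM in control vector libraries. It had 51.0, 27.1, 38.4 and 39.4 CPM in Htt-72Q 1 to 4, against 128, 92.3, 97.7 and 97.7 CPM in Htt-25Q 1 to 4. The highest Htt-72Q library was below the lowest Htt-25Q library. Its fold change was -1.41 ± 0.27 on the log2 scale (adjusted p = 0.00191), and the call was kept in each of the 22 alternatives with values of -1.57 to -1.27.

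Gas5 had 93.2, 104, 124 and 89.4 CPM in Htt-72Q 1 to 4, against 64.0, 64.9, 66.1 and 68.3 CPM in Htt-25Q 1 to 4. The 4 Htt-25Q libraries lay close together, below every Htt-72Q library. Gas5 was higher in Htt-72Q by a log2 fold change of 0.64 ± 0.15 (adjusted p = 0.00778), kept in each of the 22 alternatives.

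Snhg1 and Zfas1 passed the test just under its threshold. Snhg1 had 24.6, 23.1, 16.2 and 16.97 CPM and Zfas1 had 26.1, 22.0, 17.7 and 17.3 CPM in Htt-25Q 1 to 4, so that Htt-72Q 4 lay within the Htt-25Q range for both. The log2 fold changes were 0.84 ± 0.29 (adjusted p = 0.0495) for Snhg1 and 0.75 ± 0.25 (adjusted p = 0.0464) for Zfas1. With the preparation as a block they were 0.46 (adjusted p = 0.0941) and 0.45 (adjusted p = 0.113), and without Htt-72Q 3 they were 0.47 (adjusted p = 0.191) and 0.47 (adjusted p = 0.163). Preparation 26, that of Htt-72Q 3, holds no Htt-25Q library. Preparation 27 holds Htt-25Q 4 alone, so under the block that library adds nothing to the comparison. Of the 12 fits that leave out 1 library, 4 kept the call of Snhg1 and 3 that of Zfas1.

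The other hosts did not pass. Snhg11 had 25.8, 27.5, 29.6 and 29.9 CPM in Htt-25Q 1 to 4, and 3 of the 4 Htt-72Q libraries were above that range. Its log2 fold change was 0.58 (95% interval -0.03 to 1.18, adjusted p = 0.142), and 0.79 with the preparation as a block, where it passed (adjusted p = 0.015). Snhg12 had 11.002, 14.7, 9.62 and 8.83 CPM in Htt-25Q 1 to 4, and its log2 fold change was 0.49 (95% interval -0.09 to 1.06, adjusted p = 0.193).

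Of the other RNAs, Malat1 had 1395 to 1944 CPM in Htt-25Q libraries and a log2 fold change of -0.13 (95% interval -0.46 to 0.19, adjusted p = 0.552). Neat1 had 1.78, 1.91, 3.11 and 3.47 CPM in Htt-25Q 1 to 4, where the library of preparation 22 was the lowest, and its log2 fold change was -0.75 (95% interval -1.65 to 0.16, adjusted p = 0.209). Rmst had 14, 18, 6 and 2 counts (0.606, 0.838, 0.225 and 0.114 CPM) in Htt-25Q 1 to 4, each below the lowest Htt-72Q library at 0.871 CPM. Its log2 fold change was 1.11 ± 0.52 and did not pass (95% interval -0.06 to 2.28, adjusted p = 0.145).

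Exon 1 of wild-type length against the vector without it gave 0 of 9 calls, and 0 of 14707 genes (0%) passed. None of the 9 had groups that did not overlap, beside 0.993% of all genes, 0.673% of them above and 0.32% below. At an unadjusted p under 0.05 there were 129 genes and 0 members, and DESeq2 and limma voom also called 0 genes. The 129 are a smaller share of the 14707 genes than the 0.05 expected with no difference, so 0 calls do not show equal groups. The log2 fold changes of the 9 RNAs lay between -0.24 for Rmst and 0.59 for Neat1, with a median of 0.16 over the 9 and -0.002 over all genes. For Gas5 it was -0.003 (95% interval -0.35 to 0.34), an interval that does not reach the estimate of 0.63 in Htt-72Q neurons against the same control vector libraries. The interval of that estimate, 0.29 to 0.98, overlaps it. For Miat the log2 fold change of Htt-25Q against control vector was 0.27 (95% interval -0.33 to 0.87), an interval with no fall as large as 1.14. For Snhg1, Zfas1, Snhg12 and Snhg11 the intervals ran from -0.49 to 0.82, from -0.54 to 0.61, from -0.57 to 0.58 and from -0.40 to 0.82. For Malat1 it was 0.24 (95% interval -0.08 to 0.57).

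The differences were also taken between libraries of the same preparation, as a description. The share of all genes with the same sign in every preparation was not computed. The counts of preparations below are therefore not read as a result about the members, and those of Rmst rest on 2 to 18 counts per library. Against control vector, Gas5, Snhg1, Zfas1, Snhg12, Snhg11 and Rmst were higher in Htt-72Q in 4 of 4 preparations, and Miat was lower in 4 of 4. The difference in log2 CPM ran from 0.20 to 1.00 for Gas5, from 0.63 to 1.34 for Snhg1, from 0.29 to 1.19 for Zfas1, from 0.15 to 0.99 for Snhg12 and from 0.22 to 1.27 for Snhg11. Against Htt-25Q, which has a partner in 3 preparations, the same 6 RNAs were higher in 3 of 3 and Miat was lower in 3 of 3. Snhg1 then differed by 0.16 to 0.55, Zfas1 by 0.19 to 0.71 and Snhg12 by 0.08 to 0.34, while Miat differed by -1.77 to -1.31. Malat1 and Neat1 were higher in 2 of 4 and 1 of 4 preparations against control vector. Between Htt-25Q and control vector libraries, Snhg1 was higher in Htt-25Q in 3 of 3 preparations, by 0.13 to 0.97, and Gas5 in 1 of 3. With the preparation as a block the log2 fold change of Snhg1 there was 0.50 (adjusted p = 0.847), against 0.16 without it (adjusted p = 1). The block also gave 0.28 for Zfas1, 0.26 for Snhg12, 0.03 for Snhg11 and 0.28 for Neat1 there, and 0.25 for Snhg12, -0.45 for Neat1 and -0.05 for Malat1 in Htt-72Q against Htt-25Q, none of them called.

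**Figure D3:**
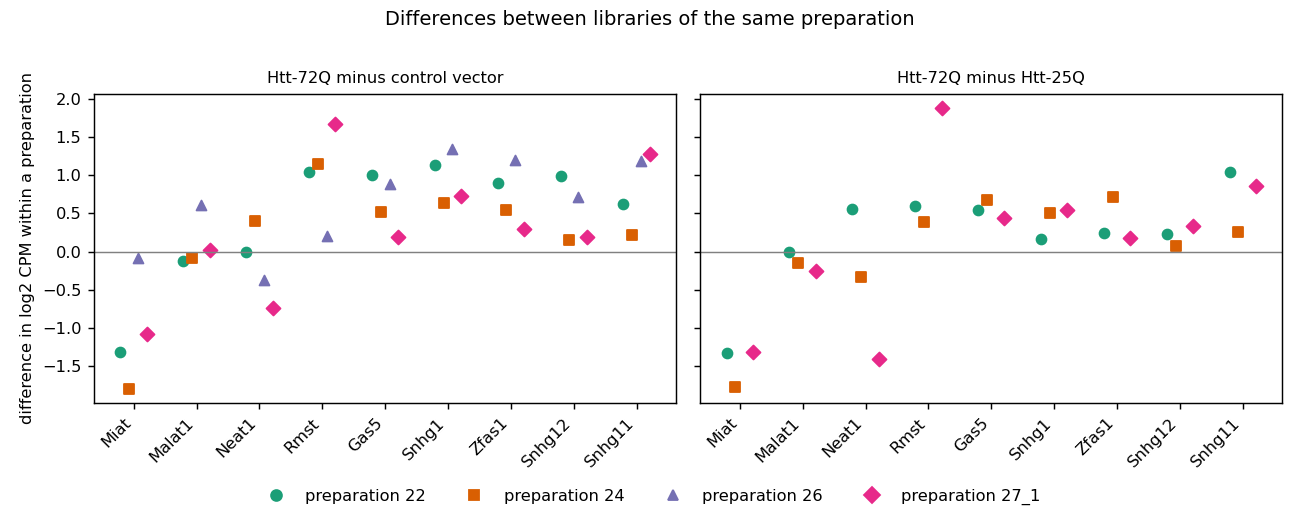
Difference in log2 CPM (vertical axis) between the Htt-72Q library and the control vector library (left) or the Htt-25Q library (right) of the same preparation, for each of the 9 RNAs. Each point is 1 preparation; the points of Gas5, Snhg1, Zfas1, Snhg12, Snhg11 and Rmst lie above 0 and those of Miat below 0 in each panel, and the point of Miat in preparation 26 is at -0.08.

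The hosts did not vary as 1 block. Over the 12 libraries, log2(CPM + 0.5) of Snhg1 and Zfas1 had a Pearson r of 0.96 and a Spearman rho of 0.937 (permutation test, adjusted p = 0.00072 and 0.00252 over 36 pairs of members, two-sided). The r was 0.923 without the 2 libraries farthest from the median of Snhg1 and 0.932 once group means were removed. Snhg1 and Snhg12 had an r of 0.896 and a rho of 0.769 (permutation adjusted p = 0.00288 and 0.0208), with 0.757 without the 2 farthest libraries and 0.863 without group means. These libraries share preparations and groups, so they are not fully independent.

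Snhg11 followed another pattern. Its r with Snhg1 was 0.07 over the 12 libraries and -0.74 once group means were removed, and its r with Miat was -0.10 and 0.81 (n = 12, given as a description without a test). Snhg11 and Miat were both lowest among control vector libraries in control vector 3, and both highest there in control vector 1.

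**Figure D4:**
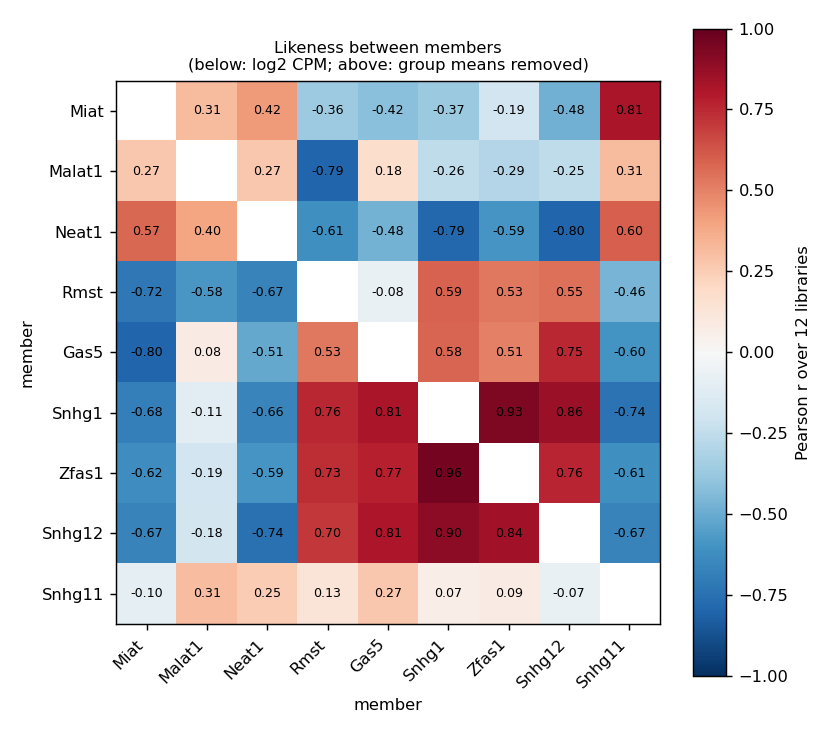
Pearson r between each pair of the 9 RNAs over 12 libraries, from log2(CPM + 0.5) below the diagonal and with group means removed above it; color gives r from -1 to 1. Snhg1, Zfas1 and Snhg12 form a block of high values on both sides, and Snhg11 is near 0 with them below the diagonal and at -0.74, -0.61 and -0.67 above it.

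The genes most like each member over the 12 libraries were also listed, out of 12386 genes that carry a symbol and average 1 CPM or more. For Snhg1 they were Slc35b3 (r = 0.976), Elf2 (0.971) and Tfam (0.966), and for Zfas1 they were Scnm1 (0.968), Elf2 (0.966) and Med11 (0.963). Elf2, an ETS family transcription factor, and Tfam, the mitochondrial transcription factor, were higher in Htt-72Q than in control vector neurons with log2 fold changes of 0.54 (adjusted p = 0.0234) and 0.42 (adjusted p = 0.0467). For Gas5 they were Unc50 (0.981), Otub1 (0.978) and Blmh (0.977). For Snhg12 they were the splicing factor Srsf7 (0.97), Chmp5 (0.966) and Rtraf (0.964), and for Snhg11 they were Zscan21 (0.91), Ern1 (0.899) and Itpkc (0.894). For Miat they were Shc2 (0.961), Galns (0.931) and Fnbp1l (0.927). For Malat1 they were Rogdi (0.908), Fam160a2 (0.903) and Slk (0.853), for Neat1 Fam167a (0.899), Bdp1 (0.892) and Ccn1 (0.876), and for Rmst Zfp874b (0.951), Nme7 (0.938) and Rab30 (0.929). These values of r are the highest of 12386 genes over 12 libraries that share groups and preparations, and nothing is read from them about function.

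The genes that start beside the hosts did not pass the test. Zbtb37, whose start lies 427 bases from that of Gas5 on the other strand, had 11.3 ± 0.898 CPM in Htt-72Q against 14.5 ± 5.76 CPM in control vector neurons (log2 fold change -0.36 ± 0.22, adjusted p = 0.263). Znfx1, which starts 81 bases from Zfas1, had 31.5 ± 2.64 CPM in Htt-72Q against 41.7 ± 9.90 CPM in control vector neurons (-0.41 ± 0.21, adjusted p = 0.176). Slc3a2, which encodes the heavy chain of amino acid transporters and starts 127 bases from Snhg1, had 160.1 ± 13.0 CPM in Htt-72Q against 191 ± 34.9 CPM in control vector neurons (-0.25 ± 0.14, adjusted p = 0.212). The fold changes of these 3 neighbours were below 0 where those of the hosts were above it, and none passed. Frmd8os beside Neat1 had 7 counts in the 12 libraries.

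Of 17 further hosts and related non-coding genes listed, 9 were tested, and 1 rose in Htt-72Q against control vector neurons. It was Snhg17, with 19.1 ± 3.67 CPM in Htt-72Q and 11.9 ± 0.624 CPM in control vector neurons (log2 fold change 0.68 ± 0.16, adjusted p = 0.00588). The fold changes of the 9 ran from -0.15 to 0.74, with a median of 0.07. Of the 9, 11.1% were called, beside 23.2% of all genes, 9.44% as higher and 13.7% as lower. Against Htt-25Q, 0 of the 9 were called. Over all annotated long non-coding genes, 88 of 874 tested rose and 79 fell against control vector (19.1% called), beside 24% of 13393 protein-coding genes.

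Genes of the proteins that work with the hosts were listed too, and none of these lists had a share of called genes above that of all genes (23.2% against control vector and 22.5% against Htt-25Q). Of 17 proteins of snoRNA particles, 0 were called against control vector and 1, the assembly factor Ruvbl2, rose against Htt-25Q (0.68 ± 0.20, adjusted p = 0.0272). Of 20 nonsense-mediated decay factors, 2 rose and 1 fell against control vector (15% called). The decay helicase partner Upf2 had 23.9 ± 5.01 CPM in Htt-72Q and 16.02 ± 3.71 CPM in control vector neurons (0.57 ± 0.19, adjusted p = 0.0451), Smg8 rose by 0.47 ± 0.12 (adjusted p = 0.014), and Smg9 had a log2 fold change of -0.50 ± 0.16 (adjusted p = 0.0325). Of 19 protein-coding genes with a 5' terminal pyrimidine tract, other than ribosomal proteins, 1 rose and 1 fell against control vector (10.5% called). The histone chaperone Nap1l1 had a log2 fold change of -0.41 ± 0.12 (adjusted p = 0.0212).

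The longest transcript of Miat in GENCODE M21, 9163 bases, holds the word TACTAAC 6 times on its own strand. Of 658 genes with a transcript at least as long, 28.6% hold the word at least once and 2 genes, Miat included, hold it 6 times or more (0.304%). Neat1 holds it once and the other 7 members not at all. The stretch with 3 of the words is printed, with the word in capitals, because it carries the feature that Miat is known for. Of 240-base windows laid end to end over the longest transcript of every gene, 0.591% hold the word at least once. The printed stretch was chosen as the one with the most words, so the 2 are not alike.
Miat transcript bases 4833 to 5072, chr5:112217319-112217558, minus strand: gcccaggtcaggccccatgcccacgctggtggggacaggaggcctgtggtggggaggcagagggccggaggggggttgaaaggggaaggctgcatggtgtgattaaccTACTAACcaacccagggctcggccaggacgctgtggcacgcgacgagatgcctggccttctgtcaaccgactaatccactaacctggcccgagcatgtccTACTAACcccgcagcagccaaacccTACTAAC

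Of 8 splicing factors listed as reported binders of Miat or as Celf family relatives, 3 fell in Htt-72Q against control vector neurons and 0 rose, where 13.7% of all genes fell. Not called were Sf1 (-0.23, adjusted p = 0.428), Qk (-0.02, adjusted p = 0.925) and Srsf1 (-0.31, adjusted p = 0.732). Celf1 (-0.33, adjusted p = 0.146) and Celf6 (-0.20, adjusted p = 0.37) were not called either. Celf3 had 59.6 ± 6.68 CPM in Htt-72Q against 109.7 ± 12.5 CPM in control vector neurons (-0.88 ± 0.12, adjusted p = 0.00013). Celf2 had 107 ± 13.1 CPM in Htt-72Q against 300 ± 152 CPM in control vector neurons (-1.48 ± 0.25, adjusted p = 0.000749), and Celf4 had a log2 fold change of -0.49 ± 0.12 (adjusted p = 0.0074). The same 3 genes were lower in Htt-72Q than in Htt-25Q neurons, with log2 fold changes of -0.94, -1.22 and -0.52 (adjusted p = 7.28e-05, 0.00289 and 0.00555). The median of the 8 was -0.32 against control vector, beside 0.03 over all genes.

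A list of other non-coding RNAs held brain long non-coding RNAs and also Rmrp, Rpph1 and Rn7sk, which are not particular to brain. Of 24 tested, 0 rose and 5 fell (20.8%) against control vector. Over all genes, 13.7% fell and 23.2% were called in either direction. Dlx6os1, transcribed from the Dlx5 and Dlx6 locus of interneurons, had 8.95 ± 3.32 CPM in Htt-72Q against 24.4 ± 3.91 CPM in control vector neurons (-1.44 ± 0.24, adjusted p = 0.000613). The host of the neuronal microRNA miR-124, Mir124a-1hg, had 13.2 ± 2.83 CPM in Htt-72Q against 27.3 ± 6.59 CPM in control vector neurons (-1.05 ± 0.20, adjusted p = 0.0017). C130071C03Rik and A330008L17Rik had log2 fold changes of -0.93 (adjusted p = 0.00414) and -1.26 (adjusted p = 0.0142). Against Htt-25Q, 6 of the 24 (25%) fell and 0 rose, where 13.4% of all genes fell and 22.5% were called in either direction.

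Genes for proteins of the nuclear bodies of Neat1 and Malat1 were called no more often than all genes (23.2%) against control vector. Of 20 paraspeckle proteins, 2 rose and 2 fell (20% called). Sfpq, a core paraspeckle protein, had 82.6 ± 13.5 CPM in Htt-72Q against 148 ± 22.0 CPM in control vector neurons (-0.84 ± 0.14, adjusted p = 0.000814), and Rbmx had a log2 fold change of -0.74 ± 0.16 (adjusted p = 0.00401). Pspc1, another core protein, had 84.6 ± 11.5 CPM in Htt-72Q against 56.8 ± 5.99 CPM in control vector neurons (0.58 ± 0.12, adjusted p = 0.00348), and Tardbp rose by 0.44 ± 0.12 (adjusted p = 0.0147). Of 20 nuclear speckle proteins 10% were called: Srsf6 rose by 0.50 ± 0.12 (adjusted p = 0.009), Rbm25 rose by 0.61 ± 0.18 (adjusted p = 0.026) and 0 fell. Of 8 genes listed as a partner or targets of human RMST, 2 fell (25%), where 13.7% of all genes fell. They were Hnrnpa2b1 (-0.45, adjusted p = 0.0271) and Dlx1 (-0.61, adjusted p = 0.0359).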

How the data were processed

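RNA-seq counts of 12 libraries were used. Per the submitters' processing notes, STAR 2.0.4b, Subread, featureCounts 1.45 and build GRCm38 were used; no settings and no annotation release were found in them. The authors deposited read counts per gene, with CPM (counts relative to library size) and RPKM (the same per kilobase of exon); both follow from the counts within 5.09e-10 and 5.09e-11, so CPM and RPKM printed here were recomputed from the counts. No libraries were duplicates (smallest chi-square per degree of freedom 8.83 over 66 pairs).

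The edgeR quasi-likelihood test (edgeR 4.0.16, R 4.3.3) was fitted to all 12 libraries with group as the term, TMM scaling and filterByExpr at a minimum count of 10 (9 residual degrees of freedom), and was tested on simulated data. The 95% intervals use the SE and 9 degrees of freedom. Alternatives were DESeq2 1.42.0, limma voom (limma 3.58.1), other scalings and filters, fits of 2 groups, blocks by title number or preparation, the library set by Gapdh level (split at the largest gap in Ctnnd1) as a covariate, and leaving out each library. The members and all lists were chosen with earlier results of these data known. Named genes are the members, their neighbours, at most 4 called genes per list with the smallest p, and the 3 genes most like each member. Some genes that were not called are also named where a marker list or the list of Miat is described. A called gene of a list is not reported here by name, and the counts include it.

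The preparation was no term of the test behind the calls and was tried as a block. Libraries of 1 preparation deviated together: residuals from group means correlated above 0.1 in 10 of 10 pairs (lowest 0.113, median 0.282) at a prior count of 2. At a prior count of 0.5, which was tried before it, 9 of 10 pairs were above 0.1 (lowest 0.099, median 0.277). Between libraries of other preparations, 6 of 38 pairs were above 0.1 at a prior count of 2 (median -0.073) and 5 of 38 at 0.5 (median -0.072). By the threshold of 0.1 for every pair the pairing is borderline, and the labels do not state it.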

Additional observations from a re-analysis of the deposited data

Results flagged for a closer look

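Of 27 groups of 4 libraries (9 RNAs in 3 groups), 1 had a library that stood apart from the others by Dixon's criterion at the 95% level, where chance alone flags about 1 in 20. Miat had 128.0 CPM in Htt-25Q 1, above the other 3 Htt-25Q libraries at 92.3 to 97.7 CPM, with a gap of 0.847 of the group's range. Htt-72Q 1 and control vector 1, which share its preparation number, were also the highest libraries of their groups for Miat, at 51.0 and 127 CPM. Without Htt-25Q 1, Miat was still called lower in Htt-72Q than in Htt-25Q neurons.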

How the results depend on the processing

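Miat and Gas5 kept their calls in both Htt-72Q comparisons under all 22 alternatives. Against control vector, 5 members were called: 3 in a fit of the 2 groups alone, 6 with the replicate block by preparation, and 2 to 4 when 1 library was left out (2 without control vector 4, 3 without Htt-72Q 2, Htt-72Q 3 or control vector 1). Against Htt-25Q, 4 were called: 2 under limma voom, 3 with the block by preparation, and 2 to 4 when 1 library was left out (2 without Htt-72Q 2 or 3, Htt-25Q 2, 3 or 4, or control vector 2 or 4). Zfas1 lost its call under limma voom and in fits of 2 groups in both comparisons (adjusted p = 0.0695 and 0.0675 against control vector, 0.081 and 0.0536 against Htt-25Q), Snhg1 under limma voom against Htt-25Q (adjusted p = 0.0728), and Snhg11 lost its call against control vector under a fit of 2 groups (adjusted p = 0.107), RLE scaling (adjusted p = 0.052) and a filter of 1 CPM in 4 libraries (adjusted p = 0.0531); the cause was not tested. The block by title number changed no member's call. Over all genes, calls stayed within 1.5 times: 2595 to 4490 of the 3411 against control vector and 2293 to 3909 of the 3308 against Htt-25Q. The sign turned only in values that passed no test. Neat1 against control vector ran from -0.57 to 0.17 when 1 library was left out. In Htt-25Q against control vector, leaving out 1 library gave -0.140 to 0.084 for Gas5, -0.709 to 0.162 for Rmst, -0.029 to 0.431 for Snhg11, -0.189 to 0.123 for Snhg12 and -0.092 to 0.133 for Zfas1. There Gas5 was 0.034 under limma voom, 0.011 under upper-quartile scaling, 0.015 with the block by title number, 0.05 with that by preparation and 0.01 with the library set as a covariate. Rmst was 0.242 with the block by preparation. Snhg12 was -0.005 under DESeq2 and RLE scaling, -0.001 without a filter, -0.007 with a filter of 1 CPM, -0.01 with 2 groups and -0.051 with the library set, and Zfas1 was -0.065 with the library set. Rmst did not reach 1 CPM in 4 libraries, so that filter gave it no value. Counts of 2 to 18 limit Rmst and 10 to 83 limit Neat1.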
